A study of Mus musculus with 20 samples.

Results

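CC chemokines are small secreted proteins named for a pair of neighboring cysteines, and they draw leukocytes along concentration gradients by binding receptors coupled to G proteins. Ccl2, Ccl7 and Ccl12 are ligands of Ccr2, the receptor that brings monocytes from the blood into tissue, and Ccl21a is a ligand of Ccr7, the receptor that guides dendritic cells and T cells toward lymphatic vessels and lymph nodes. In the uterus before implantation, macrophages and dendritic cells are known as residents of the stroma.

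The genes described are 9 members of this family, chosen by symbol: the 7 ligands Ccl2, Ccl7, Ccl12, Ccl8, Ccl9, Ccl6 and Ccl21a, and the 2 receptors Ccr2 and Ccr7. They are 9 of the 45777 genes in the deposited table. All 9 were above 0 in every library, so all were tested. The unit is TPM, an abundance of transcripts scaled by their length and to the same total in every library, so levels of different genes can be set side by side, but the number of reads behind a value is unknown.

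RNA of 1 uterine horn was sequenced from each of 20 mated B6D2F1 females aged 8 to 12 weeks, with 5 mice per group and collection at 18:00 on day 3.5, before embryo attachment (the morning of the plug was day 0.5). The control mice were pregnant and untreated. The implantation failure (IF) mice received RU486, an antagonist of the progesterone and glucocorticoid receptors, at 3 mg/kg under the skin at 9:00 of the same day. The PBMC mice received RU486 and, on day 1.5, 50000 peripheral blood mononuclear cells in each horn, taken from non-pregnant mice and cultured for 24 h. In the PBMC-hCG mice, these cells had been cultured with human chorionic gonadotropin (hCG) at 5 IU/mL. Control and IF mice had no injection into the uterus, and mice given medium alone were not analysed here, so the injection and the cells cannot be told apart.

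Whole uterus markers were present in every library. The summed level of 7 stromal genes ran from 1590 to 2980 TPM, that of 7 epithelial genes from 579 to 1180 TPM, and that of 5 smooth muscle genes from 3100 to 7580 TPM. Control replicate 2 stood apart. Its median correlation with the other mice of its group was 0.963, against 0.98 to 0.99 in the other libraries, and its summed level of 5 adipose and mesentery genes was 327 TPM, where no other library exceeded 75.5 TPM. Where leaving it out changes a call among the 9 genes, the value without it is given.

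To show how far the ligands differ where they share their name, 54 bases of each coding sequence are given 5′ to 3′ from the GENCODE transcripts of GRCm38, with the codons of the paired cysteines in capitals.
Ccl2: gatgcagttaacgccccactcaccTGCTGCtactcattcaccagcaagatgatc
Ccl7: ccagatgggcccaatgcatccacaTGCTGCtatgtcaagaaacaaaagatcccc
Ccl12: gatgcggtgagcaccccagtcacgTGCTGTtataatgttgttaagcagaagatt
Ccl8: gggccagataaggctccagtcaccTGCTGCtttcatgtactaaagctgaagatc
Ccl9: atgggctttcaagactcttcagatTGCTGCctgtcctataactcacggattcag
Ccl6: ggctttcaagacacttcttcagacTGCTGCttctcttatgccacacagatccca
Ccl21a: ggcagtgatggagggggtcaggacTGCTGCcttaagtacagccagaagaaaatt

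In this window, Ccl12 matched Ccl2 at 33 of 54 bases, Ccl8 at 32 and Ccl7 at 23. Reads can be shared only where longer stretches are identical. No stretch of 100 bases of Ccl2, Ccl7, Ccl12, Ccl8, Ccl9, Ccl6 or Ccr7 occurred in the transcript of another gene. Ccl21a shared 388 of 771 (50.3%) with Ccl21b, Gm10591, Gm13304 and Gm21541, and reads from these stretches cannot be assigned to 1 of the genes by their sequence.

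The genes lie in few places of the genome (NCBI annotation of GRCm38.p6). Ccl2 (chromosome 11, 82035577 to 82037452), Ccl7 (82045712 to 82047525), Ccl12 (82101845 to 82103399) and Ccl8 (82115185 to 82116799) stand in this order within 81.2 kb, with the eotaxin gene Ccl11 (82057832 to 82062955) between Ccl7 and Ccl12. Ccl9 (83572917 to 83578636) and Ccl6 (83587886 to 83593087) are neighbors within 20.2 kb on the same chromosome, which also holds Ccr7 (99144199 to 99155077). Ccr2 is on chromosome 9 (124101918 to 124109140) and Ccl21a on chromosome 4 (42772860 to 42773991).

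Ccl21a, Ccl8 and Ccl6 were the abundant ligands. Their mean levels over the 20 mice were 359, 260 and 107 TPM, and together they made up 63.3% to 73.3% of the summed TPM of 26 CC ligand genes in a library. Ccr2 followed with a mean of 42.5 TPM, then Ccl12 (18.8 TPM), Ccl9 (13.5 TPM), Ccl7 (9.46 TPM), Ccl2 (6.43 TPM) and Ccr7 (0.5 TPM). The ranges over mice of Ccl21a and Ccl8 overlapped, as did those of each pair of neighbors in this order from Ccr2 to Ccl2. Ccl6 stood clear of Ccl8 above it and of Ccr2 below it, and Ccr7 lay below the other 8 genes in every mouse. The genes also differed in how much they varied. The coefficient of variation over the 20 mice was 73.1% for Ccl7, 54.6% for Ccl12 and 51.0% for Ccl2, and 15.8% for their abundant neighbor Ccl8.

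**Figure D1:**
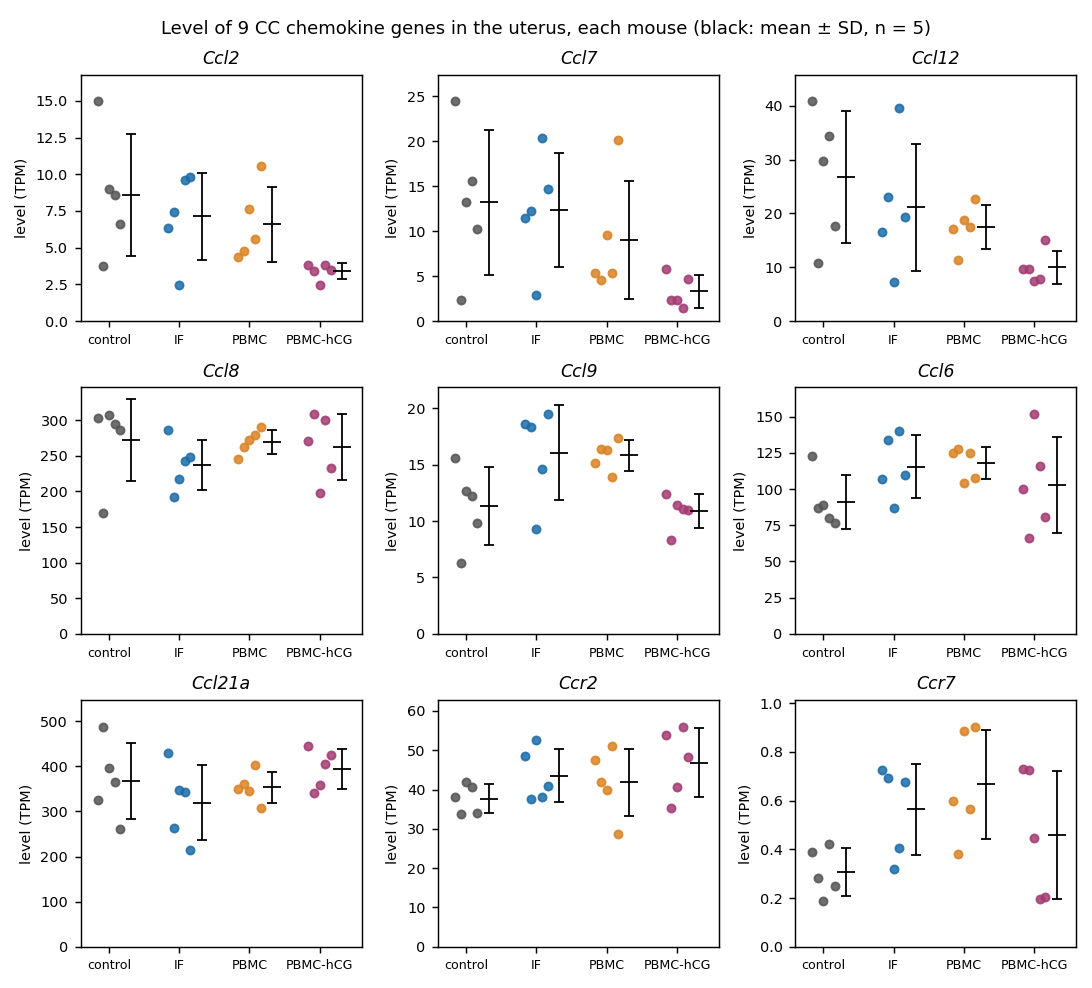
Level in TPM of each of the 9 genes (vertical axes, each from 0), by group. Each point is a mouse, and the black bars give the mean and SD of 5 mice. The PBMC-hCG mice lie between 2.45 and 3.84 TPM for Ccl2, while the Ccl8 values of the 4 groups overlap.

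The genes Ccl2, Ccl7 and Ccl12, which encode ligands of Ccr2 that attract monocytes, were low in the PBMC-hCG group. In comparison with controls, all 3 fell. In comparison with IF mice, Ccl7 fell by 1.80 on the log2 scale, while Ccl2 and Ccl12 had lower means that did not pass the adjusted test. Ccl8, their neighbor, was not called in any comparison with all 20 libraries.

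Ccl2 was measured at 15.0, 3.75, 9.03, 8.57 and 6.62 TPM in control replicates 1 to 5 and at 6.36, 7.41, 2.45, 9.61 and 9.80 TPM in the IF mice. It was 4.33, 4.77, 7.64, 5.62 and 10.6 TPM in the PBMC mice and 3.83, 3.42, 2.45, 3.84 and 3.50 TPM in the PBMC-hCG mice. Every PBMC-hCG mouse lay below every PBMC mouse, and control replicate 2 and IF replicate 3 lay within or at the edge of the PBMC-hCG range. The means were 8.6 ± 4.15 TPM (SD, n = 5) in controls and 3.41 ± 0.571 TPM in PBMC-hCG mice, a 2.28-fold lower level on the log2(TPM + 0.1) scale. The log2 difference was -1.19 (SE 0.36, limma with Benjamini-Hochberg adjusted p = 0.0177).

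Ccl7 was measured at 24.5, 2.39, 13.3, 15.6 and 10.2 TPM in the controls and at 11.5, 12.3, 2.87, 20.4 and 14.7 TPM in the IF mice. It was 5.34, 4.61, 9.60, 5.33 and 20.2 TPM in the PBMC mice and 5.74, 2.31, 2.32, 1.44 and 4.64 TPM in the PBMC-hCG mice. The PBMC-hCG mice were below 4 of the 5 mice in both the control and the IF group, with control replicate 2 and IF replicate 3 again the exceptions. Ccl7 was 3.51-fold lower in PBMC-hCG than in control mice (log2 difference -1.81, SE 0.59, limma adjusted p = 0.0259) and 3.49-fold lower than in IF mice (-1.80, SE 0.59, limma adjusted p = 0.0499). The latter p lay at the threshold.

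Ccl12 was measured at 40.9, 10.8, 29.8, 34.4 and 17.7 TPM in the controls and at 16.6, 23, 7.21, 39.5 and 19.3 TPM in the IF mice. It was 17.1, 11.3, 18.8, 17.4 and 22.7 TPM in the PBMC mice and 9.70, 9.62, 7.53, 7.90 and 15.1 TPM in the PBMC-hCG mice. PBMC-hCG replicate 5 was the highest of its group and lay above PBMC replicate 2. The other 4 PBMC-hCG mice lay below every mouse of the other groups except IF replicate 3. The level in PBMC-hCG mice was 2.48-fold lower than in controls (log2 difference -1.31, SE 0.38, limma adjusted p = 0.0136).

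Ccl8 was measured at 303, 170, 307, 295 and 286 TPM in the controls and at 286, 192, 217, 243 and 248 TPM in the IF mice. It was 245, 263, 272, 279 and 290 TPM in the PBMC mice and 271, 309, 198, 300 and 233 TPM in the PBMC-hCG mice. All groups overlapped, and control replicate 2 was the lowest mouse. The difference between IF and control mice was -0.18 on the log2 scale with all libraries, and without control replicate 2 it was -0.34 and was called (limma adjusted p = 0.0373). The difference between PBMC-hCG and control mice was -0.04 on the log2 scale, with a 95% interval from -0.36 to 0.27, and that between PBMC-hCG and IF mice was 0.14, with an interval from -0.18 to 0.45. Both intervals leave out a change as large as those fitted for Ccl2, Ccl7 and Ccl12. Expressed within a library, Ccl8 was 20.2 to 45.3 times as abundant as Ccl2 in the controls, 25.3 to 88.4 times in the IF mice, 27.2 to 56.6 times in the PBMC mice and 66.6 to 90.2 times in the PBMC-hCG mice. The PBMC-hCG range overlapped with that of the IF mice.

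These calls are read against the whole table. Of 18706 genes tested, 31.8% were called between PBMC-hCG and control mice, 11.6% as lower, and 3 of the 9 chemokine genes were called, all lower. Between PBMC-hCG and IF mice, 13.6% of all genes (2544) were called, 5.99% as lower, and 1 of the 9 was called, as lower. The count of all genes called in this comparison rested on single libraries. It was 0 to 34 without IF replicate 2, 4 or 5 or PBMC-hCG replicate 2, 3, 4 or 5, and 4071 to 5062 without control replicate 2, IF replicate 3 or PBMC-hCG replicate 1. At a raw p-value under 0.05 in the same comparison, 14.3% of all genes and 4 of the 9 (Ccl2, Ccl7, Ccl9 and Ccl12) were lower. Between PBMC-hCG and PBMC mice, 0.0107% of all genes and none of the 9 were called by limma, and at a raw p-value under 0.05 the same 4 were lower, against 7.51% of all genes. The log2 differences of Ccl2, Ccl7 and Ccl12 in that comparison were -0.87, -1.36 and -0.81, with limma adjusted p of 0.287, 0.291 and 0.306. The median log2 difference of the 9 genes was -0.33 between PBMC-hCG and IF mice, where that of all tested genes was 0.05, and -0.01 between PBMC-hCG and control mice, where that of all genes was 0.08.

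**Figure D2:**
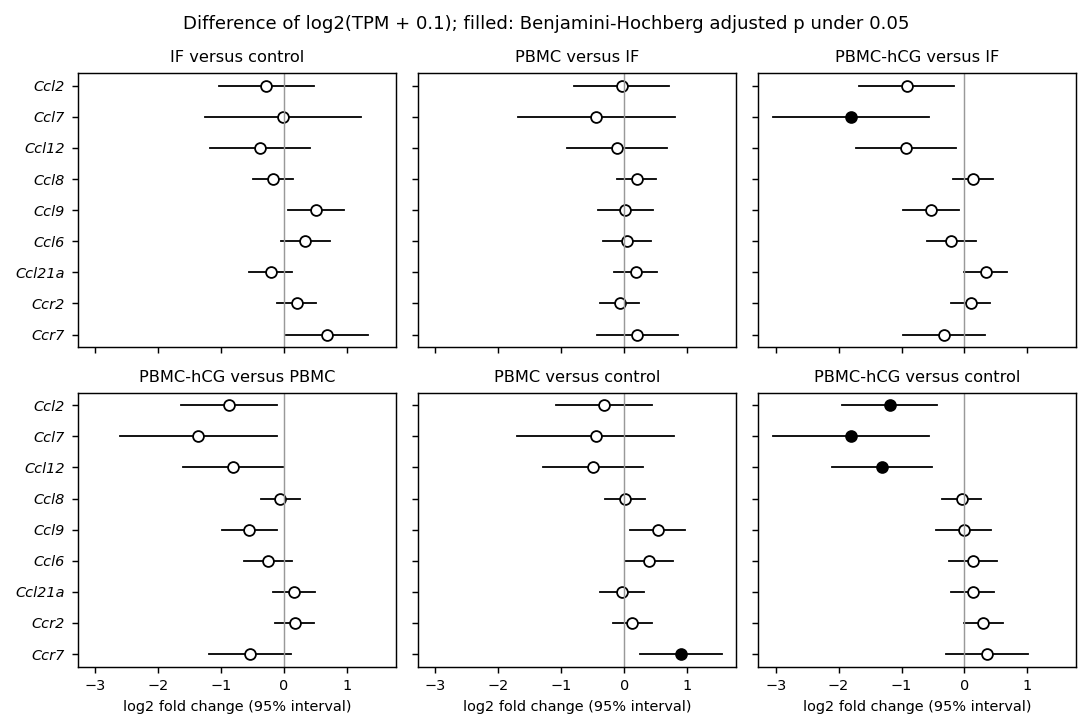
Difference in mean log2(TPM + 0.1) (horizontal axes) of the 9 genes in 6 comparisons, with 95% intervals from limma. Filled points had an adjusted p under 0.05: Ccl7 between PBMC-hCG and IF, Ccr7 between PBMC and control, and Ccl2, Ccl7 and Ccl12 between PBMC-hCG and control.

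Single mice carried weight in these calls. With each of the 20 libraries left out in turn, Ccl12 was called between PBMC-hCG and control in 20 of 20 fits, Ccl2 in 19 and Ccl7 in 14. Without control replicate 1, the highest mouse for all 3 genes, the difference of Ccl2 was -0.96 (limma adjusted p = 0.0557), that of Ccl7 -1.51 (adjusted p = 0.0749) and that of Ccl12 -1.12 (adjusted p = 0.0423). The Ccl7 call was also lost without control replicate 3 or 4 or PBMC-hCG replicate 2, 3 or 4. Without control replicate 2 the differences were -1.45, -2.33 and -1.60 for Ccl2, Ccl7 and Ccl12. The Ccl7 call between PBMC-hCG and IF was held in 4 of 20 fits, those without control replicate 2, IF replicate 3, PBMC replicate 5 or PBMC-hCG replicate 1, with differences from -2.26 to -1.56 over all fits. Without IF replicate 3, Ccl2 (-1.25, limma adjusted p = 0.0134), Ccl7 (-2.26, adjusted p = 0.0132), Ccl9 (-0.71, adjusted p = 0.0153) and Ccl12 (-1.26, adjusted p = 0.0162) were all called lower in PBMC-hCG than in IF mice, in a fit that called 5062 of 18725 genes against 2544 of 18706 with all libraries.

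The levels of these 3 genes varied together from mouse to mouse. Over the 20 mice, log2 levels of Ccl2 and Ccl7 had a Pearson r of 0.92 and a Spearman rho of 0.91, those of Ccl2 and Ccl12 an r of 0.91 and a rho of 0.92, and those of Ccl7 and Ccl12 an r of 0.91 and a rho of 0.92. Each had a permutation p of 1e-05, the smallest that 100000 permutations can give, and an adjusted p of 0.00012 over the 36 pairs of the 9 genes. With the 2 mice farthest from the median of the first gene left out, r was 0.90 for Ccl2 and Ccl7 and 0.87 for Ccl2 and Ccl12. With group means removed, these were 0.88 and 0.85. Ccl8 followed less closely, with an r of 0.43 to Ccl2 (permutation p = 0.0605, adjusted p = 0.161). Pairs with an adjusted Pearson p under 0.05 numbered 6 of 36, and the other 3 were those of Ccl9 with Ccl2 (r 0.61), with Ccl7 (r 0.66) and with Ccl6 (r 0.59). Their rho was 0.66, 0.61 and 0.56, and with group means removed their r was 0.79, 0.79 and 0.44. For Ccl9 and Ccl6, the permutation p of rho adjusted over the 36 pairs was 0.0598.

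**Figure D3:**
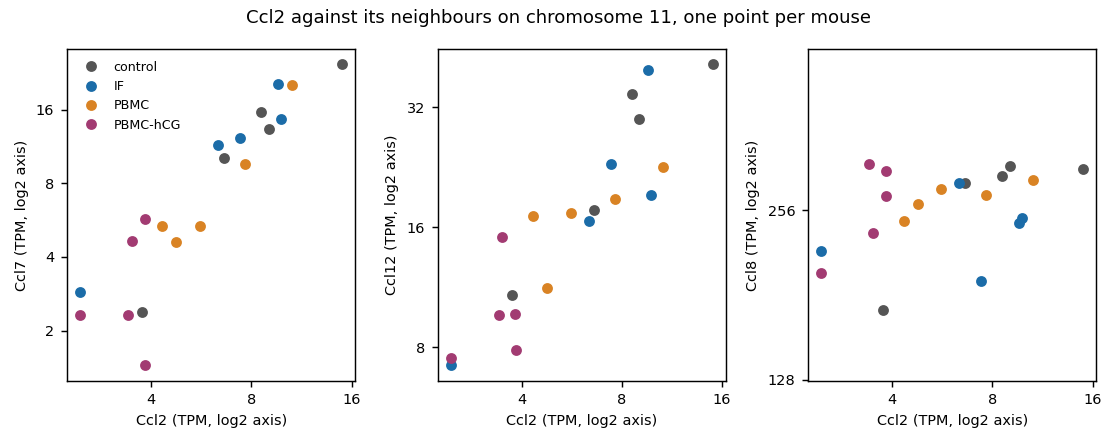
Levels in TPM of Ccl7, Ccl12 and Ccl8 (vertical, log2 axes) against that of Ccl2 (horizontal, log2 axis). Each point is a mouse, colored by group. Ccl7 and Ccl12 rise with Ccl2 (r of 0.92 and 0.91, n = 20), and Ccl8 spreads between 170 and 309 TPM.

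Many other genes followed the same order of mice. The first principal component of the other 18697 tested genes held 26.4% of their variance. It ran from -43.8 to 16.3 in the controls (median -33.2), from -30.1 to 30.7 in the IF mice (median -12.1), from -31.7 to 20.8 in the PBMC mice (median 11.1) and from 7.50 to 43.7 in the PBMC-hCG mice (median 38.8), in units without a scale. The highest control and the highest IF mouse on it were control replicate 2 and IF replicate 3. Over the 20 mice, Ccl7 correlated with this component at r -0.92 (rho -0.90), Ccl2 at r -0.89 (rho -0.86) and Ccl12 at r -0.82 (rho -0.85), and with the 2 mice farthest on the component left out r was -0.94, -0.94 and -0.85. The permutation p adjusted over the 9 genes was 4.5e-05, 4.5e-05 and 6e-05. Within groups, r was -0.91, -0.83 and -0.68. Many genes followed the component: 1230 of all tested genes, Ccl2, Ccl7 and Ccl12 among them, had an r under -0.8 and 1515 an r over 0.8. How many reached the r of Ccl7 or Ccl2 was not counted. The component was computed from the other genes and without the 9, so high correlations of the other genes with it are in part built in. The genes whose levels were most like those of Ccl2, Ccl7 and Ccl12, among 15763 with a mean of at least 1 TPM, included Sf3b6, a splicing factor subunit (r 0.93 to Ccl2, 0.948 to Ccl7 and 0.906 to Ccl12), and Eif3b, a translation initiation factor subunit (r 0.946 to Ccl7).

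With the component as a covariate, which was added after the data were seen, the differences of the 3 ligands were near 0 or positive. Between PBMC-hCG and IF mice, the log2 difference was 0.04 for Ccl2, -0.06 for Ccl7 and -0.09 for Ccl12. Between PBMC-hCG and control mice it was 0.21 for Ccl2, 0.75 for Ccl7 and -0.09 for Ccl12, and none of these was called. What the component stands for was not tested. The component and the groups overlap in part, and the share of the fall that belongs to each cannot be told apart. The PBMC-hCG mice lay at 7.5 to 43.7 on the component. The only control in that range was replicate 2 (16.3), and the only IF mouse was replicate 3 (30.7). The differences fitted with the covariate therefore rest on these mice or reach beyond the range that the groups share.

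**Figure D4:**
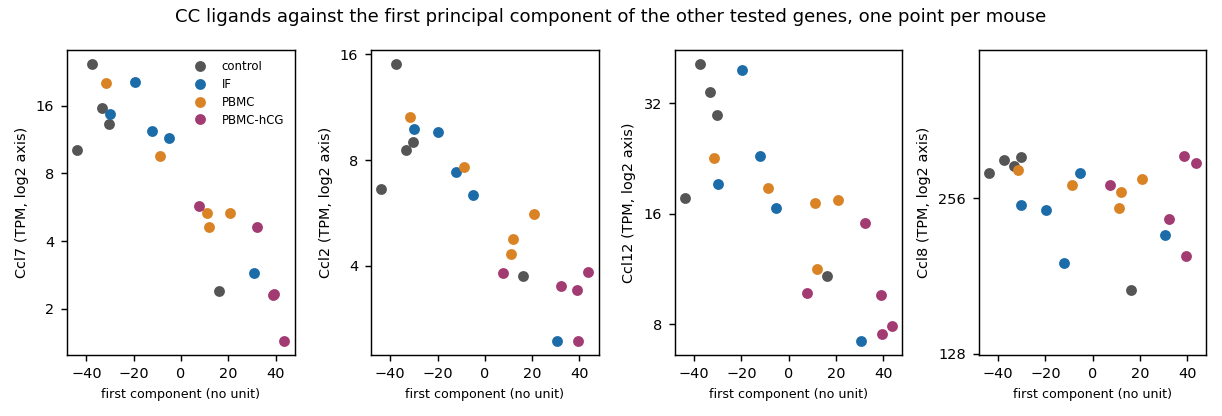
Level in TPM of Ccl7, Ccl2, Ccl12 and Ccl8 (vertical, log2 axes) against the position of each mouse on the first principal component of the other tested genes (horizontal, no unit). Ccl7 is lower toward the right (r -0.92, n = 20), and Ccl8 shows less of this (r -0.32).

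With all 20 libraries, no monocyte and macrophage marker was called lower beside the Ccr2 ligands. The summed level of 13 such genes, all above 0 in every library, ran from 595 to 754 TPM in controls, from 640 to 725 TPM in IF mice, from 705 to 751 TPM in PBMC mice and from 667 to 888 TPM in PBMC-hCG mice. Most of it came from C1qa and C1qb (means over 20 mice 220 and 207 TPM), while Ly6c2 had a mean of 16.6 TPM. Between IF and control mice, 3 of the 13 were called higher and none lower. With 1 library left out 0 to 3 were called higher, where 13.4% of all genes were called higher with all libraries. Between PBMC-hCG and control mice, 2 of the 13 were called higher and none lower by limma, where 20.2% of all genes were called higher, and between PBMC-hCG and IF mice none was called. With 1 library left out, 1 of the 13 was called lower than in controls without control replicate 2 or 5 or IF replicate 1, and 1 lower than in IF mice without IF replicate 3. Red cell genes summed to 342 to 878 TPM in PBMC-hCG mice and 640 to 1800 TPM in IF mice, and these ranges overlapped. Of the 5 genes, 2 were called lower, where 5.99% of all genes were called lower. When 1 library was left out, 0 to 4 were called lower, and none in most of these fits. Blood endothelial genes were higher in all 3 RU486 groups. Their sums were 473 to 510 TPM in IF, 479 to 545 TPM in PBMC and 523 to 590 TPM in PBMC-hCG mice, against 316 to 425 TPM in the controls. In each group 5 of 5 genes were called higher than in controls, with 4 to 5 in IF mice when 1 library was left out. Of all 18706 genes, 2509 were called higher than in controls in IF, 2400 in PBMC and 3772 in PBMC-hCG mice. Smooth muscle genes summed to 3100 to 3950 TPM in PBMC-hCG mice and 3450 to 7580 TPM in controls, with 4 of 5 called lower (3 to 4 with 1 library left out). Epithelial genes summed to 890 to 1180 TPM and 579 to 948 TPM in these groups, with 4 of 7 called higher and 1 lower. Between the same groups, 20.2% of all genes were called higher and 11.6% lower. The part of each of these in the chemokine results was not tested. In whole tissue, fewer cells of a type and less RNA per cell cannot be told apart.

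Ccr2, the receptor of these ligands, is carried by monocytes and some lymphocytes. It was measured at 38.2, 33.7, 41.9, 40.6 and 34.1 TPM in controls, 48.5, 37.5, 52.6, 38.0 and 40.9 TPM in IF mice, 47.6, 41.9, 40, 51.0 and 28.7 TPM in PBMC mice and 54.0, 35.4, 40.6, 56.0 and 48.2 TPM in PBMC-hCG mice. Its groups overlapped throughout, and its mean was 37.7 ± 3.73 TPM in controls and 46.8 ± 8.77 TPM in PBMC-hCG mice. That difference was 0.30 on the log2 scale, with a 95% interval from -0.01 to 0.61 and a limma adjusted p of 0.136. The intervals of Ccr2 between PBMC-hCG and IF mice ran from -0.21 to 0.41. The genes most like Ccr2 over the 20 mice were Klrb1a (r 0.84), Klri2 (r 0.835) and Ptprc (r 0.831). The former 2 encode lectin-like receptors of natural killer cells and Ptprc the pan-leukocyte antigen CD45.

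Ccl9 and Ccl6 encode ligands of Ccr1, made largely by myeloid cells. Ccl9 was measured at 15.6, 6.31, 12.7, 12.2 and 9.85 TPM in controls and at 18.6, 18.3, 9.31, 14.6 and 19.5 TPM in IF mice. It was 15.1, 16.4, 16.3, 13.9 and 17.4 TPM in PBMC mice and 12.4, 8.36, 11.4, 11.1 and 11 TPM in PBMC-hCG mice. All PBMC-hCG mice lay below all PBMC mice and below 4 of the 5 IF mice, and they overlapped with the controls. The IF mean exceeded the control mean by 0.51 on the log2 scale (SE 0.21, limma adjusted p = 0.0886). The PBMC-hCG mean was lower than the IF mean by 0.53 on the log2 scale, from 16.1 ± 4.21 to 10.8 ± 1.50 TPM (limma adjusted p = 0.0878), and differed from the control mean by -0.01. None of these passed the adjusted test. Ccl9 is among the genes that the study itself chose to show from these libraries, so its direction is not independent evidence.

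Leaving out 1 library moved Ccl9 across the threshold. Between IF and control mice it was called without control replicate 1 (0.64, limma adjusted p = 0.0389) and without IF replicate 3 (0.70, adjusted p = 0.0138), and without control replicate 2 the difference was 0.32. Between PBMC and control mice it was called without control replicate 1 (0.67, adjusted p = 0.0357) and without IF replicate 3 (0.53, adjusted p = 0.0392). Between PBMC-hCG and IF mice it was called without control replicate 2 (-0.53, adjusted p = 0.0386) and without IF replicate 3. With the first component as a covariate, Ccl9 was higher than control in IF (0.74, adjusted p = 0.00103), in PBMC (0.86, adjusted p = 0.000567) and in PBMC-hCG mice (0.71, adjusted p = 0.0238). That covariate was added after the data were seen and follows the groups in part. Without it, none of these differences was called with all libraries, so these calls depend on it. The genes most like Ccl9 were Gda (r 0.94), Upp1 (r 0.938) and Fhl3 (r 0.913), the first of which encodes guanine deaminase and the second uridine phosphorylase.

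Ccl6 was measured at 123, 87.0, 88.7, 79.9 and 76.5 TPM in controls and at 107, 134, 87.0, 140 and 110 TPM in IF mice. It was 125, 128, 104, 125 and 108 TPM in PBMC mice and 100, 65.9, 152, 116 and 80.4 TPM in PBMC-hCG mice. Control replicate 1 lay among the treated mice, and the 4 groups overlapped. The PBMC mean was above the control mean by 0.39 on the log2 scale (95% interval 0.01 to 0.77, limma adjusted p = 0.149). Ccl6 was 5.61 to 13.8 times as abundant as its neighbor Ccl9 in a library. Its closest genes were Mmp25 (r 0.858), Lilra6 (r 0.851) and P2rx1 (r 0.844), of which Mmp25 encodes a membrane-bound metalloproteinase of leukocytes and Lilra6 a leukocyte immunoglobulin-like receptor.

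Ccl9 is the one gene of the 9 with a searched motif in its promoter among those given in the reference table. Windows of 300 bases, from 250 before to 50 after a start site, were given for Ccl12, Ccl8, Ccl9, Ccl6, Ccl21a and Ccr2 and searched on both strands for 5 motifs. The Ccr2 window (chromosome 9, 124101933 to 124102232, plus strand) begins after the start of the gene given above (124101918), so it lies inside the annotated gene. These were kappa B (GGG, 5 bases of any kind and CC), AP-1 (TGANTCA), STAT (TTC, 3 bases of any kind and GAA), the estrogen response element (GGTCA, 3 bases of any kind and TGACC) and the element of the glucocorticoid and progesterone receptors (G, any base, ACA, 3 bases of any kind, TGT, any base and C). Among all 32851 promoters of the table, 50.8% held the kappa B letters, 7.81% those of AP-1, 0.475% those of the glucocorticoid and progesterone receptor element, 0.07% those of the estrogen response element and 8.3% those of STAT. The Ccl9 window held 1 match to AP-1, at 53 to 47 bases before the start, and 1 to kappa B, at 35 to 26 bases before it. The 100 bases before its start (GRCm38.p6, chr11:83578637-83578736, minus strand) are shown with both matches in capitals.
Ccl9 promoter: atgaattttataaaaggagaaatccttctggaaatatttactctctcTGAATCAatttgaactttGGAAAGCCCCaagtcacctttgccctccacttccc

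Ccl21a encodes a chemokine of lymphatic endothelium and lymph node stroma. It was measured at 326, 488, 397, 366 and 262 TPM in controls and at 429, 264, 347, 343 and 215 TPM in IF mice. It was 349, 361, 345, 404 and 307 TPM in PBMC mice and 446, 340, 359, 405 and 425 TPM in PBMC-hCG mice. The groups overlapped, and the highest mouse was control replicate 2. The largest difference of its group means was that between PBMC-hCG and IF mice, at 0.34 on the log2 scale (95% interval 0.00 to 0.68, limma adjusted p = 0.147).

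Its 4 copies moved with it. The coding sequences of Ccl21a and of Ccl21b, Gm10591, Gm13304 and Gm21541 were each 402 bases long, and each copy differed from Ccl21a by the same substitutions, T84A and C194T, counted from the first base of the start codon with the base of Ccl21a first. The bases around the former are shown, with the differing base in capitals.
Ccl21a: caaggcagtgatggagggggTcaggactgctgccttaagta
Ccl21b: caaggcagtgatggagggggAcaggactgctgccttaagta

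The ratio of Ccl21a to Ccl21b was 6.53 to 8.07 over the 20 libraries, with a coefficient of variation of 6.15%, while Ccl21a itself varied by 18.4%. The correlation of Ccl21a was 0.984 with Gm10591, 0.982 with Gm21541 and 0.982 with Gm13304. How the authors' counting divided reads among the copies is not given in the sources used here. With the TPM of all 5 genes summed, which was added after the data were seen, the difference between PBMC-hCG and IF mice was 0.34 and no comparison was called. Between control and IF mice, lymphatic endothelial markers did not follow Ccl21a. Their sum over 6 genes was 85.2 to 116 TPM in controls and 126 to 197 TPM in IF mice. In IF mice 4 of the 6 were called higher, and 3 to 4 with 1 library left out, where 13.4% of all genes were called higher. The fitted difference of Ccl21a was -0.21.

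Ccr7, the receptor of Ccl21a, was at the low end of the table. It was measured at 0.391, 0.281, 0.186, 0.424 and 0.251 TPM in controls and at 0.727, 0.693, 0.319, 0.407 and 0.678 TPM in IF mice. It was 0.599, 0.383, 0.888, 0.564 and 0.904 TPM in PBMC mice and 0.730, 0.724, 0.448, 0.198 and 0.205 TPM in PBMC-hCG mice. Of the PBMC mice, 4 lay above every control, while the PBMC-hCG mice overlapped with each of the other groups. Ccr7 was higher in PBMC than in control mice, at 0.668 ± 0.224 against 0.307 ± 0.0992 TPM (log2 difference 0.90, SE 0.31, limma adjusted p = 0.048), in a comparison where 19.5% of all genes were called and Ccr7 was the 1 called gene of the 9. The pseudocount of 0.1 draws the fold change of so low a gene toward 0.

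That call was close to the threshold. It was held in 7 of the 20 fits with 1 library left out, those without control replicate 4, IF replicate 3, PBMC replicate 2 or PBMC-hCG replicate 1, 2, 4 or 5, with differences from 0.78 to 1.05 and limma adjusted p from 0.0316 to 0.117 over the 20. Without control replicate 2 it was 0.88 (limma adjusted p = 0.0632). Between IF and control mice, the difference was 0.69 (SE 0.31, limma adjusted p = 0.121), and between PBMC and IF mice it was 0.21 (SE 0.31). Of 8 dendritic cell markers, none was called between PBMC and control mice. Their sum was 112 to 191 TPM in controls and 156 to 181 TPM in PBMC mice, most of it from Fscn1 (mean over 20 mice 122 TPM), an actin-bundling protein also made by other cells, while the other 7 had means of 0.762 to 11.7 TPM. The genes most like Ccr7 were Slc15a3 (r 0.851), Dlc1 (r 0.843) and Gpr176 (r 0.828).

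With all 20 libraries, none of the 9 genes was called between IF and control or between PBMC and IF mice. Between IF and control mice, limma called 21.9% of all genes and none of the 9, and 2 of the 9 (Ccl9 and Ccr7, both higher) had a raw p-value under 0.05. Calls between IF and control arose in other fits. Ccl8 was lower without control replicate 2, and Ccl9 was higher without control replicate 1 or IF replicate 3. With the first component as a covariate, Ccl7 (0.80, limma adjusted p = 0.0242), Ccl9 and Ccr7 (0.90, adjusted p = 0.0254) were called higher. That covariate was added after the data were seen and follows the groups in part. Between PBMC and IF mice, limma called 0% of all genes and none of the 9. None of the 9 but 1271 of all genes had a raw p-value under 0.05 there. The median log2 difference of the 9 genes was -0.01 between IF and control and 0.02 between PBMC and IF mice, where that of all tested genes was 0.02 in both. Within the latter comparison the widest 95% interval was that of Ccl7, from -1.69 to 0.80, and the intervals of Ccl8, Ccl6, Ccl21a and Ccr2 lay between -0.38 and 0.52.

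Of 18 other CC ligands listed, 16 were in the table under the listed symbols and 10 were above 0 in all libraries. Ccl21d was among those not found by symbol, and RefSeq gives Gm21541, one of the copies described above, as an older name of it. Ccl11, the eotaxin that attracts eosinophils through Ccr3, had the highest mean of these over the 20 mice, ahead of Ccl21b, although in controls it (18.1 TPM) lay below Ccl21b (53.4 TPM) and Ccl5 (27.5 TPM). The study chose Ccl11 for display from these libraries, so its direction is not independent evidence. It lay at 16 to 19.5 TPM in the controls and at 59.8 to 105 TPM in the IF mice, with no overlap, a 4.73-fold difference (log2 2.24, SE 0.21, limma adjusted p = 6.15e-07). In the PBMC mice it was 52.4 to 122 TPM and in the PBMC-hCG mice 36.2 to 69.6 TPM. The PBMC-hCG level was lower than that of IF mice (-0.92, SE 0.21, limma adjusted p = 0.0264) and above that of controls (1.32, SE 0.21, adjusted p = 0.00013). With 1 library left out, the calls against controls were made in 20 of 20 fits and that against IF mice in 13, lost without IF replicate 2, 4 or 5 or PBMC-hCG replicate 2, 3, 4 or 5 (adjusted p up to 0.0922). With the component as a covariate the latter difference was -0.46 (adjusted p = 0.376). With all libraries, Ccl11 was called higher than control in each RU486 group, and its neighbors Ccl7 and Ccl12 in none.

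Ccl28, an epithelial chemokine, was the other one called. It was 1.51 to 8.17 TPM in controls and 0.367 to 0.756 TPM in PBMC mice, lower by 2.36 on the log2 scale than in controls (SE 0.51, limma adjusted p = 0.00274), and PBMC-hCG mice were lower than controls by 1.97 (SE 0.51, adjusted p = 0.00667). The highest value, 8.17 TPM, was that of control replicate 2, without which these differences were -2.05 (adjusted p = 0.00624) and -1.65 (adjusted p = 0.0148). No other ligand of the 10 was called in any of the 6 comparisons, Ccl5 (mean 24.7 TPM) and Ccl21b (51.2 TPM) included.

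None of the 11 tested receptors among 13 other CC and atypical chemokine receptors was called in any comparison by limma. At a raw limma p-value under 0.05, 1 of the 11 was lower and 1 higher in PBMC-hCG than in IF mice. Of all 18706 genes, 2681 were lower and 3866 higher by this rule. Ccr1, the receptor of Ccl9 and Ccl6, was the lower one (-0.55, limma adjusted p = 0.13). Ackr4, which removes Ccl21 from tissue, was the higher one (0.50, adjusted p = 0.109). Between PBMC-hCG and control mice, 2 of the 11 were lower and 2 higher by the same rule, where 2916 of all genes were lower and 4976 higher.

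**Figure D5:**
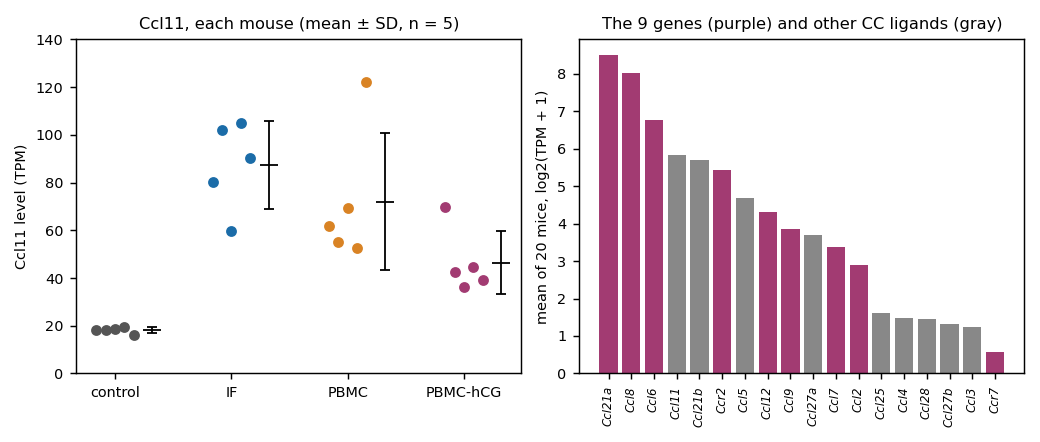
Left, level of Ccl11 in TPM (vertical axis from 0) in each mouse by group, with mean and SD of 5 mice. Controls lie between 16 and 19.5 TPM and IF mice between 59.8 and 105 TPM. Right, mean level over 20 mice as log2(TPM + 1) of the 9 genes (purple) and of other CC ligands with a mean of at least 1 TPM (gray), in order of level.

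Genes that carry, dampen or end the signal of receptors coupled to G proteins, chemokine receptors among them, were also counted. Of 20 such genes, 8 were called higher and 1 lower in IF than in control mice, where 13.4% of all genes were called higher and 8.53% lower. The 8 became 4 without IF replicate 5, and 5 without control replicate 2 or 5 or IF replicate 2. Grk3 (log2 difference 1.05, SE 0.18, limma adjusted p = 0.000357), Grk5 (0.61, adjusted p = 0.00407) and Grk2 (0.23, adjusted p = 0.00264), kinases that desensitize receptors coupled to G proteins, were among the higher ones. Rgs2, which ends signaling by Gq proteins, fell by 2.38 on the log2 scale, from a mean of 480 to 92.0 TPM (adjusted p = 2.97e-11). Between PBMC-hCG and IF mice, Arrb1 (0.36, adjusted p = 0.0344), a beta-arrestin, and Gng2 (0.41, adjusted p = 0.0302), a G protein subunit, were higher and none of the 20 was lower, where 7.61% of all genes were called higher. Neither was called without IF replicate 2, 4 or 5 or PBMC-hCG replicate 2, 3, 4 or 5.

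Of 12 genes of the NF-kB pathway and its feedback, a route that controls many chemokine genes, 3 were called higher and 1 lower in IF than in control mice, against the same shares of all genes. Relb (0.34), Rela (0.27) and Nfkb1 (0.23), subunits of the factor, were higher, with limma adjusted p of 0.00236, 0.00942 and 0.00417. Tsc22d3, a gene induced by glucocorticoids, fell from a mean of 126 to 45.8 TPM (-1.45, SE 0.22, adjusted p = 0.000124). Between PBMC-hCG and IF mice, Tsc22d3 was higher (0.77, adjusted p = 0.0363) and Rela (-0.22, adjusted p = 0.0472) and Nfkbia (-0.38, adjusted p = 0.0444), an NF-kB inhibitor and target, were lower. With 1 library left out, 0 to 1 of the 12 were called higher and 0 to 2 lower in this comparison, and none in the 7 fits just named.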

How the data were processed

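Uterine RNA of 20 mice was sequenced, with 5 mice and 1 library per mouse in each of 4 groups taken from the sample labels. According to the study's methods, the authors prepared stranded mRNA libraries, trimmed reads with Trimmomatic, used HISAT2 for mapping to mm10 and StringTie for assembly. The deposited values are TPM. Versions are not given in the sources used here. TPM totals were 999989 to 999999 per library, so they hold no trace of sequencing depth, and intervals for counting error are left out. The authors tested counts with edgeR, which TPM does not allow.

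Here, log2(TPM + 0.1) of the 18706 genes above 0 in all 20 libraries was fitted with 4 group means and a trended variance (limma 3.58.1, R 4.3.3). P-values were two-sided and adjusted by the Benjamini-Hochberg method over all tested genes of a comparison, and genes with an adjusted p under 0.05 were called. The fit was tested on simulated data in which genes varied independently, so that test does not cover genes that vary together. Correlations used 100000 two-sided permutations over mice (numpy 2.4.6 in Python 3.11.15). Coding sequences came from GENCODE vM21, promoters and positions from RefSeq. Figures were drawn with matplotlib 3.10.9.

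The 9 genes, the lists of related and marker genes and the tests were chosen with earlier results of these data known. All 9 genes are named with values. Of other CC genes, those called in any comparison and the 3 with the highest mean were to be named, of which 1 is not reported here, and of the signaling lists those called among the 4 with the smallest adjusted p in IF versus control and in PBMC-hCG versus IF. Ccr1 and Ackr4 were named after their values were seen. For each of the 9, the 3 genes with the highest correlation were sought, and some of these are given. As alternatives, the pseudocount, the filter, the scaling, the threshold and the model were changed in turn, and each library was left out.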

Additional observations from a re-analysis of the deposited data

Results flagged for a closer look

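Within a group, 3 of 36 sets of 5 values (9 genes in 4 groups) held a mouse that stood off from the others by more than 0.71 of the range of the set, Dixon's limit for 5 samples. Chance alone flags about 1 in 20 sets. Ccl8 in control replicate 2 was 170 TPM, where the nearest control was at 286 TPM, a gap of 0.848 of the range, in the library that also stood apart by its adipose genes. Ccl6 in control replicate 1 was 123 TPM, where the nearest control was at 88.7 TPM (0.741 of the range). Ccl12 in PBMC-hCG replicate 5 was 15.1 TPM, where the nearest mouse of its group was at 9.70 TPM (0.711 of the range). Causes were not tested.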

How the results depend on the processing

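Counts are of the 9 genes called, and log2 differences follow. Between IF and control, 0 to 1 were called with 1 library left out (Ccl8 without control replicate 2, Ccl9 without control replicate 1 or IF replicate 3) and 3 (Ccl7, Ccl9 and Ccr7) with the first component as a covariate. Between PBMC-hCG and IF, 0 were called with a pseudocount of 1, with genes above 0 TPM in any library, without the variance trend or with the component, and 0 to 4 with 1 library left out. Between PBMC-hCG and PBMC, 1 passed a fold change of at least 2 with a raw p under 0.05. Between PBMC and control, 0 were called with a pseudocount of 0.01, with genes above 0 in any library or with a mean of at least 1 TPM, with median ratio scaling, quantile normalization, the replicate block or the fold change rule, 2 with the component and 0 to 2 with 1 library left out. Between PBMC-hCG and control, 1 was called with the component and 1 to 3 with 1 library left out. The labels do not say that replicate numbers pair the mice. Of 30 pairs with the same number in different groups, 11 had deviations correlated over 0.1 and 7 correlated best with their own number. The latter included replicate 5 of control and IF (0.45), of control and PBMC (0.30) and of IF and PBMC (0.50). No chance value was computed for these counts, so they cannot decide whether the numbers pair some mice. The replicate block called 3215 of all genes between PBMC-hCG and IF, against 2544 without it. With the replicate block, 1 was called between PBMC-hCG and IF and 3 between PBMC-hCG and control.

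With the component, the direction turned for Ccl2 (0.17), Ccl7 (0.80) and Ccl12 (0) between IF and control, Ccl2 (0.15) and Ccl12 (0.05) between PBMC and IF, Ccl2 (0.04), Ccr2 (-0.07) and Ccr7 (0.11) between PBMC-hCG and IF, Ccl7 (0.04), Ccl8 (0.13) and Ccl21a (-0.07) between PBMC-hCG and PBMC, Ccl2 (0.32), Ccl7 (0.71) and Ccl12 (0.06) between PBMC and control, and Ccl2 (0.21), Ccl7 (0.75), Ccl8 (0.31), Ccl9 (0.71) and Ccl21a (-0.29) between PBMC-hCG and control. Ccl8 turned with quantile normalization between PBMC-hCG and PBMC (0.02) and between PBMC-hCG and control (0.03), and with median ratio scaling between PBMC and control (-0.03).

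With 1 library left out, differences that were not called changed sign over these ranges: between IF and control Ccl2 (-0.54 to 0.06) and Ccl7 (-0.53 to 0.45), between PBMC and IF Ccl2 (-0.38 to 0.11), Ccl6 (-0.05 to 0.12), Ccl9 (-0.16 to 0.10), Ccl12 (-0.45 to 0.16) and Ccr2 (-0.15 to 0.06), between PBMC-hCG and PBMC Ccl8 (-0.12 to 0.04), between PBMC and control Ccl8 (-0.14 to 0.07) and Ccl21a (-0.15 to 0.08), and between PBMC-hCG and control Ccl6 (-0.02 to 0.28), Ccl8 (-0.20 to 0.05) and Ccl9 (-0.21 to 0.12). Apart from the component, no alternative turned the direction of Ccl2, Ccl7 or Ccl12 between PBMC-hCG and IF, PBMC or control. The causes were not tested. TPM carries no depth, so the counting error of Ccr7, Ccl2 and Ccl7, the genes at the lowest levels, is unknown.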

Other observations

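Several CC genes were at the edge of detection. Ccl26 was listed at 0 in all 20 libraries, Ccl20 in 12, Ccl1 in 10, Ccl17 in 8, Ccl19 and Ccl24 in 3 each, Ccr8 in 2 and Ccr6 in 1. Ccl20 reached 1.63 TPM and Ccl17, a ligand of Ccr4, 1.23 TPM at most, and neither was tested.

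Leukocyte markers other than those of macrophages were also summed by library. Genes of T, B and NK cells (12 listed) ran from 77.3 to 87.2 TPM in control mice and from 93.9 to 130 TPM in PBMC-hCG mice, and 3 of the 10 tested were called higher by limma between these groups, where 20.2% of all genes were called higher. The 3 became 1 without control replicate 1 or PBMC-hCG replicate 3 or 4, and 2 without control replicate 4 or 5 or PBMC-hCG replicate 5. They became 4 without PBMC-hCG replicate 2, and 0 with the first component as a covariate. Granulocyte and mast cell genes (9 listed) spread most within PBMC-hCG mice, from 80.9 to 387 TPM. Most of the mean level came from Retnlg (mean over 20 mice 150 TPM), while the others had means of 0.0126 to 17.9 TPM. Lymph node genes (5 listed) ran from 7.87 to 22.1 TPM in control mice and from 12.5 to 20 TPM in PBMC-hCG mice, and ovary and oviduct genes (5 listed) from 31.8 to 42.4 TPM in control mice and from 20 to 30.3 TPM in PBMC-hCG mice. These sums were not tested.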
